A study of Mus musculus with 16 samples.

Results

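The genes described here are the mouse genes whose symbol starts with Nduf, the nuclear genes for the subunits and assembly factors of mitochondrial complex I. They were taken by name, from array probe sets that the platform annotation pairs with a single symbol, and the probe set with the highest mean over the 16 arrays stood for each gene. This gave 44 genes of 18193 with a single symbol. Of these, 43 passed a filter on low signal, and the exception was Ndufa4l2. Ndufs6 and Ndufa11, whose probe sets carried several symbols, were not analysed here.

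Total RNA of the hippocampus was hybridised to 16 Affymetrix arrays, each with RNA of a separate mouse. Every mouse was a female of the 3xTG-AD line aged 14 months. This Alzheimer's disease model carries transgenes for mutant human APP and tau under a neuronal Thy1 promoter. Controls and treated animals shared that genotype, and no wild-type group was analysed here. Diets began at 10 months of age and lasted about 14 weeks: 8 mice received a control diet and 8 a diet holding pioglitazone (PIO) at 84 ppm, for a daily dose near 18 mg/kg. Pioglitazone is a thiazolidinedione, a drug class that activates the nuclear receptor PPAR gamma. The question was whether complex I genes differed between the diets, and how far they varied between animals.

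Complex I is the entry point of the respiratory chain. Its matrix arm takes electrons from NADH through a flavin and a row of iron-sulfur clusters to ubiquinone, and its membrane arm, whose core is encoded by mitochondrial DNA, pumps protons. Core subunits do the chemistry, accessory subunits surround and stabilise them, and assembly factors build the enzyme and then leave it. Neurons rely on this chain for the ATP that ion pumping and synaptic transmission consume, and thiazolidinediones are known to act on mitochondria as well as on PPAR gamma.

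Nuclear genes of the respiratory chain are known to share control by the transcription factor NRF1, by factors of the ETS family such as GABPA and by the estrogen-related receptors. RefSeq promoter windows (GRCm38.p6, 250 bases before to 50 after each gene's start) were matched for 39 of the 44 genes. The NRF1 motif GCGCANGCG, searched on both strands, was found in 8 of the 39 windows (20.5%), against 7.03% of 27025 genes with such a window. The windows of 7 of the 8 genes around the first match are shown. Whether the motif goes with the shared variation between animals described below was not tested. Capitals mark the match, on the strand of the gene.
Ndufa5: tgtgtgagctGCGCAGGCGcaaatctacc
Ndufa6: cgtggcaccgCGCGTGCGCacgctgaagg
Ndufa8: tagagcagtgCGCTTGCGCgtcgctggag
Ndufaf4: ccagatgtctGCGCATGCGcctgtgcgga
Ndufaf5: agtcccgttgGCGCATGCGcctaatagaa
Ndufb10: tcacctttctGCGCAGGCGtagaggtccc
Ndufs5: gctgcttgctGCGCAGGCGcagacccgct

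The windows lay at chr6:24527698-24527726 on the minus strand for Ndufa5, chr15:82354249-82354277 (minus) for Ndufa6, chr2:36049349-36049377 (minus) for Ndufa8, chr4:24897960-24897988 (plus) for Ndufaf4, chr2:140170652-140170680 (plus) for Ndufaf5, chr17:24724407-24724435 (minus) for Ndufb10 and chr4:123718266-123718294 (minus) for Ndufs5. The eighth gene was Ndufb4. In Ndufa6 and Ndufa8 the capitals read as the reverse complement of the motif. The ETS motif CCGGAAGT, also searched on both strands, was found in 1 of 39 windows (2.56%, against 4.31% of all genes). That window was that of Ndufs3, at chr2:90904704-90904731 on the minus strand, and its capitals read as the reverse complement of the motif.
Ndufs3: gcacatttccACTTCCGGtccgtgccct
The ERR motif TCAAGGTCA was found in 0 of 39, against 0.466% of all genes. These are letter matches in a short window and say nothing on whether a factor was bound.

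The deposited log2 signals had similar medians in all arrays (5.64 to 5.76), and pairs of arrays had r of 0.994 to 0.998 over all probe sets. Probe sets differ in how they bind, so levels are compared between animals and not between genes. Neuronal markers were high in all arrays (10 of 10 tested, means of 13.64 to 13.79 in controls and 13.59 to 13.80 with PIO). Other tissues differed between dissections. The choroid plexus marker mean (7 of 8 markers tested) ran from 5.31 to 11.02 in controls and from 4.72 to 11.24 with PIO, and the striatal mean (5 of 8 tested) was highest in PIO animals 14 and 15, whose markers of hippocampal neurons were lowest. All 7 tested oligodendrocyte, 8 microglial and 8 astrocyte markers had negative differences between diets (medians -0.19, -0.18 and -0.067), with an unadjusted p under 0.05 for 2 of each list. None of the 7 choroid plexus, 5 striatal or 6 thalamic markers tested had a negative difference (medians 1.44, 0.30 and 0.13), and 0 of 5 blood markers passed the filter. Their part in the results for the Nduf genes was not tested.

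No Nduf gene passed the test between diets, and the differences were small. By limma with Benjamini-Hochberg adjustment over 12266 genes, 0 of the 43 members had an adjusted p under 0.05, as had 0 of all genes (0%). The smallest adjusted p of a member was 0.681. A plain two-sample comparison also gave 0 genes after adjustment, and 835 at an unadjusted p under 0.05 against 859 by limma. Differences, given as PIO minus control in log2 units, ran from -0.094 for Ndufv1 to 0.15 for Ndufaf6, and in 32 of 43 genes the difference was smaller than its own standard error. The median size of a difference was 0.025, against 0.050 over all genes tested. Among 1691 other genes with a mean between 11.5 and 13.5 it was 0.041, against 0.021 for the 21 members in that range. In whole tissue, fewer cells of a type and less RNA per cell cannot be told apart.

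An unadjusted p under 0.05 was found for 2 members (4.65%), against 859 of all genes tested (7%). They were Ndufv1 on the lower side, where all genes gave 386 (3.15%), and Ndufaf6 on the higher side, where all genes gave 473 (3.86%). The members' share was therefore no larger than the background. The direction leaned lower: 29 of 43 members (67.4%) had a negative difference, against 47.3% of all genes, and the median difference was -0.016 against 0.0045. Of the 21 members with a mean between 11.5 and 13.5, 19 were lower, against 50.1% of other genes in that range. That range was set from the members' own means, and members outside it did not lean lower as a set. Of those with a higher mean, Ndufa1, Ndufa12, Ndufab1, Ndufb6, Ndufc2 and Ndufv2 were higher and Ndufa3, Ndufa4, Ndufa5, Ndufb9 and Ndufs8 lower. Those with a lower mean were the Nduf assembly factors (4 lower, 4 higher), Ndufb1 and Ndufb4 (higher) and Ndufs4 (lower). No test was run on this. The count of lower members differed between sets of arrays, and so did the background. In the arrays numbered 1 to 6 (4 control, 2 PIO), 33 of 43 members were lower (76.7%, all genes 60.6%), with a median of -0.056 against -0.029 over all genes. In those numbered 10 to 24 (4 control, 6 PIO), 18 of 43 were lower (41.9%, all genes 40.6%), with a median of 0.0025 against 0.021. The members' median lay below that of all genes in both sets. With the array number range as a block, 30 of 43 were lower (69.8%, all genes 47.6%), with a median of -0.020 against 0.0042. The sources used here do not say what the array number stands for, and its part in the result was not tested beyond these values. Without PIO animal 11 alone, 23 of 43 were lower.

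**Figure D1:**
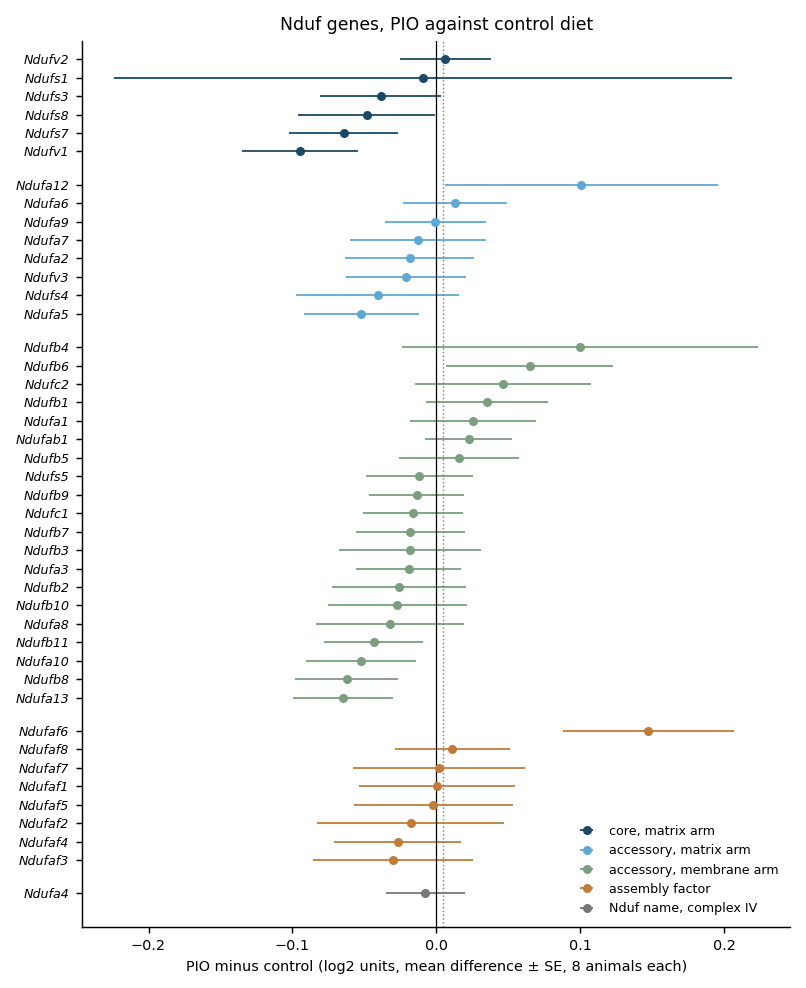
Difference between diets for each of the 43 tested Nduf genes, PIO minus control in log2 units, with bars of 1 moderated SE (8 animals per diet), grouped by role; the dotted line is the median of all genes tested (0.0045). Points lie between -0.094 (Ndufv1) and 0.15 (Ndufaf6), and for 32 of the 43 the bar reaches 0.

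The core subunits of the matrix arm, which carry the flavin and the iron-sulfur clusters, had negative differences in 5 of 6 cases (median -0.044, 1 with an unadjusted p under 0.05). Ndufv1 binds the flavin at which NADH is oxidised. Its signal was 12.84 in the lowest control, 12.94 in the median and 12.99 in the highest, and 12.70, 12.84 and 12.94 with PIO. All 8 PIO animals lay below the control median and 4 lay below every control, while the others overlapped the controls. The difference was -0.094 (SE 0.040; 95% interval -0.180 to -0.009; unadjusted p = 0.032, adjusted p = 0.681 by limma), a ratio of 0.937. The other probe sets of Ndufv1 (1415967_at and 1456015_x_at, beside the chosen 1415966_a_at) had differences of -0.040 and -0.088. Their r with the chosen set was 0.41 and 0.95. With probe sets of shared sequence left out, Ndufv1 was read by 1415967_at and had an unadjusted p of 0.32 by limma.

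Ndufs7, which carries the cluster next to ubiquinone, had control values of 13.03, 13.17 and 13.23 (lowest, median, highest) and PIO values of 13.01, 13.10 and 13.18. In 7 of 8 PIO animals it lay below the control median, and the ranges overlapped. The difference was -0.064 (SE 0.038, adjusted p = 0.762 by limma), with -0.15 in arrays 1 to 6 alone and -0.032 in arrays 10 to 24 alone. Ndufs8, an iron-sulfur subunit beside it, had 13.94, 14.06 and 14.06 in controls and 13.80, 13.99 and 14.15 with PIO. Here 3 PIO animals lay below all controls and 3 above all controls, so the PIO group was the wider one, and the difference was -0.048 (SE 0.048).

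Ndufs3, a core subunit without a cluster at the base of the matrix arm, had 13.01, 13.10 and 13.23 in controls and 12.97, 13.07 and 13.17 with PIO. Its difference of -0.039 (SE 0.042) was smaller than its error. Ndufv2, the iron-sulfur partner of Ndufv1, had 13.53, 13.55 and 13.66 in controls and 13.52, 13.56 and 13.65 with PIO. It was the only core subunit with a positive difference (0.0063, SE 0.031), and its values coincided in both diets. Ndufs1, the largest core subunit, had a difference of -0.0092 with a much larger error (SE 0.21), and its values are given with the spread between animals.

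**Figure D2:**
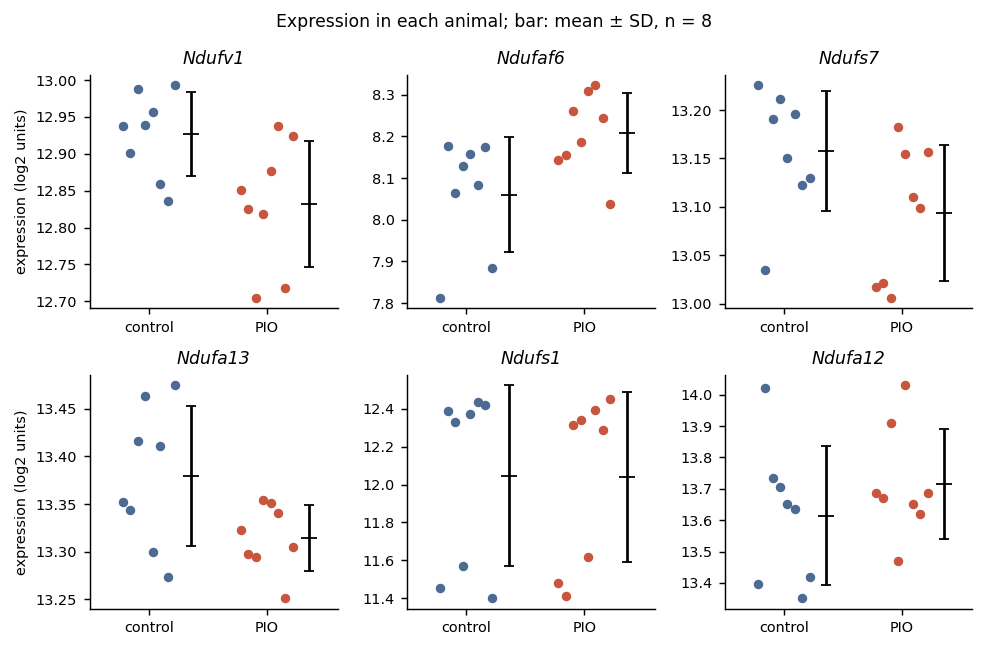
Log2 signal of 6 Nduf genes in every animal, by diet (8 points per diet, horizontally spread for legibility), with the mean and 1 SD beside the points; each panel has its own axis. Values of both diets overlap in each panel, and Ndufs1 falls into 2 bands that hold animals of both diets.

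The accessory subunits of the matrix arm had negative differences in 6 of 8 cases (median -0.016) and none had an unadjusted p under 0.05. They ran from -0.052 for Ndufa5 to 0.10 for Ndufa12, with Ndufs4 at -0.041, Ndufv3 at -0.021, Ndufa2 at -0.019, Ndufa7 at -0.013, Ndufa9 at -0.0007 and Ndufa6 at 0.013. Ndufs4 is the subunit whose loss in mice is a standard model of Leigh syndrome. Ndufa12 takes the place of the assembly factor Ndufaf2, its paralog, when the enzyme is finished. Its chosen probe set (1455806_x_at) read 13.35, 13.64 and 14.02 in controls and 13.47, 13.68 and 14.03 with PIO. The difference was 0.10 (SE 0.095), with 6 of 8 PIO animals above the control median. The other 3 probe sets of Ndufa12 past the filter had differences of -0.062 (1418814_s_at), -0.020 (1425919_at) and -0.047 (1433513_x_at), so the sign of this gene depended on the probe set.

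The accessory subunits of the membrane arm, 20 in number, had 13 negative differences (median -0.017), again with none at an unadjusted p under 0.05. The 3 with the smallest p were all on the lower side. Ndufa13, also known as GRIM-19, read 13.27, 13.38 and 13.47 in controls and 13.25, 13.31 and 13.35 with PIO. All 8 PIO animals lay below the control median, the PIO group was the narrower one (SD 0.035 against 0.074), and 4 controls lay within its range. The difference was -0.065 (SE 0.035, adjusted p = 0.745 by limma).

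Ndufb8, from the far end of the membrane arm, read 13.23, 13.37 and 13.47 in controls and 13.24, 13.28 and 13.35 with PIO. Again all 8 PIO animals lay below the control median and none below the lowest control, with a difference of -0.062 (SE 0.036). Ndufa10, an accessory subunit with a nucleoside kinase fold, read 12.83, 12.85 and 12.98 in controls and 12.70, 12.79 and 12.95 with PIO. Its difference was -0.052 (SE 0.038), and 5 of 8 PIO animals lay below every control while the other 3 lay above the control median.

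On the other side of 0, Ndufb6 read 13.47, 13.63 and 13.80 in controls and 13.58, 13.67 and 13.94 with PIO, with a difference of 0.065 (SE 0.058). Without PIO animal 16 it was 0.031. Ndufb1, a small subunit of the membrane arm, read 7.55, 7.62 and 7.73 in controls and 7.58, 7.63 and 7.81 with PIO, a difference of 0.035 (SE 0.043). Neither difference stood out from the spread between animals.

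Ndufb4 was measured by a probe set close to the filter of 3.58 log2 units, at 3.15, 3.57 and 3.78 in controls and 3.14, 3.58 and 4.32 with PIO. Its difference of 0.10 (SE 0.12) was 0.0025 without PIO animal 15, so it rested on 1 animal. Ndufab1, the mitochondrial acyl carrier protein, which also serves fatty acid synthesis, read 13.53, 13.57 and 13.65 in controls and 13.54, 13.59 and 13.66 with PIO (difference 0.023, SE 0.030). Ndufb9, a subunit that binds an acyl carrier protein, read 14.12, 14.14 and 14.24 in controls and 14.05, 14.14 and 14.22 with PIO (difference -0.014, SE 0.033). In both genes the groups coincided. The remaining 12 subunits of this arm had differences between -0.044 (Ndufb11) and 0.046 (Ndufc2).

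The 8 assembly factors with an Nduf name were evenly divided, with 4 negative and 4 positive differences (median -0.0008). Ndufaf6, which is required at an early stage of complex I assembly, was the member with the largest difference. It read 7.81, 8.11 and 8.18 in controls and 8.04, 8.22 and 8.32 with PIO. In 5 of 8 PIO animals it lay above every control, and 7 of 8 lay above the control median. Controls 1 and 8 were the lowest of all animals. The difference was 0.15 (SE 0.059, unadjusted p = 0.024, adjusted p = 0.681 by limma), a ratio of 1.11. It was 0.15 in the arrays numbered 10 to 24 and 0.10 in those numbered 1 to 6, and 0.12 without PIO animals 14 and 15, which had the highest striatal markers. The other 7 factors lay between -0.030 (Ndufaf3) and 0.011 (Ndufaf8), each below its standard error.

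A pair of genes with an Nduf name lies outside complex I. Ndufa4 was first counted as a subunit of it and is now assigned to complex IV. It read 13.55, 13.62 and 13.65 in controls and 13.54, 13.60 and 13.64 with PIO, with the smallest spread between animals of any member (SD 0.036) and a difference of -0.0076 (SE 0.028). Its paralog Ndufa4l2, known as a gene induced by hypoxia, did not pass the filter and was not tested. It read 2.00, 2.12 and 2.14 in controls and 2.10, 2.11 and 2.15 with PIO.

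Complex I genes resembled the rest of the respiratory chain in the size and direction of their differences. Of 43 genes of complexes II to V, 30 had negative differences (69.8%) with a median of -0.029, and 0 had an unadjusted p under 0.05. The medians were -0.037 for complex II, -0.031 for complex III, -0.033 for complex IV and -0.018 for complex V, with 6 of 8, 6 of 9, 6 of 10 and 12 of 16 genes lower. Their genes with the smallest p were Sdha (-0.040, SE 0.033), the flavoprotein of succinate dehydrogenase, Uqcrfs1 (-0.057, SE 0.042), the Rieske iron-sulfur protein, Cox7a2l (-0.087, SE 0.045), a factor of supercomplex formation, and Atp5c1 (-0.083, SE 0.044), the gamma subunit of ATP synthase. The difference between complex I and these complexes was not tested.

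**Figure D3:**
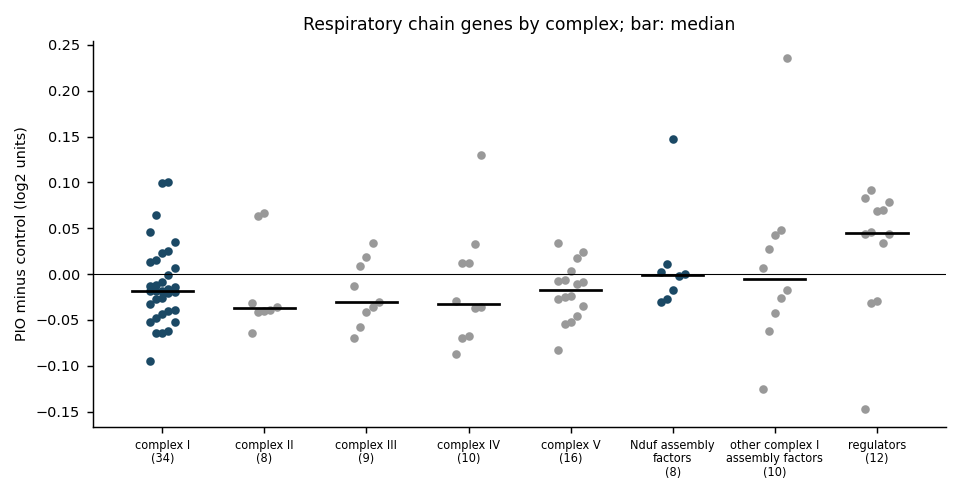
Difference between diets, PIO minus control in log2 units, for each gene of complexes I to V, of the assembly factors of complex I and of regulators of mitochondrial genes, with the number of genes in parentheses and a bar at the median. The medians of complexes I to V lie between -0.037 and -0.018, that of the Nduf assembly factors at -0.0008 and that of the regulators at 0.045.

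Among 10 assembly factors of complex I with other names, 5 had negative and 5 positive differences (median -0.0050), with 0 at an unadjusted p under 0.05. Foxred1, an oxidoreductase needed for assembly, had -0.13 (SE 0.068, adjusted p = 0.745 by limma). Timmdc1, a membrane factor, had 0.24 with a large error (SE 0.22) and values from 7.48 to 8.81 in controls. The others were Dmac2 at -0.062, Acad9 at -0.043, Nubpl, which delivers iron-sulfur clusters, at -0.026, Tmem186 at -0.017, Dmac1 at 0.0069, Ecsit at 0.027, Tmem126b at 0.043 and Tmem70 at 0.048.

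The regulators that drive respiratory chain genes were measured on the same arrays. Of 12 tested, 9 had positive differences (median 0.045), and 1 had an unadjusted p under 0.05. That was Yy1, a zinc finger factor, at 11.50, 11.59 and 11.70 in controls and 11.65, 11.66 and 11.76 with PIO (difference 0.092, SE 0.036, adjusted p = 0.681 by limma). The coactivators gave 0.034 for Ppargc1a (SE 0.084), -0.032 for Ppargc1b (SE 0.067) and 0.078 for Pprc1 (SE 0.059). Nrf1 gave -0.15 (SE 0.15), its mitochondrial target Tfam 0.046, Gabpa 0.083, Gabpb1 0.044, Tfb1m 0.070, Tfb2m 0.044, Esrra -0.029 and Esrrg 0.068, none of them with an unadjusted p under 0.05. Of the 8 members with an NRF1 motif match 6 had negative differences (median -0.019), and of the other 31 with a promoter window 20 had (median -0.018).

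Between animals on the same diet, Nduf genes varied less than most. The median SD between animals was 0.079 log2 units over the 43 members, against 0.130 over all genes tested, and 39 members lay below that all-gene median. Bright probe sets tend to vary less, so genes of like signal were examined too. Among 1691 other genes with a mean between 11.5 and 13.5, the range that holds the middle of the members, the median SD was 0.094, against 0.073 for the 21 members in that range. In controls the members' median SD was 0.072 and with PIO 0.080. The SD was larger with PIO in 26 of 43 members (60.5%), close to the 59% of all genes. The 3 least variable members were Ndufa4 (0.036), Ndufab1 (0.045) and Ndufv2 (0.048), and the 3 most variable were Ndufs1 (0.46), Ndufb4 (0.26) and Ndufa12 (0.20). The SD of Ndufa12 depended on the probe set. It was 0.106 for 1418814_s_at, 0.071 for 1433513_x_at and 0.314 for 1425919_at, whose control mean was only 4.59. Their r with the chosen set was -0.61, -0.49 and -0.52, so this spread may not be that of the gene.

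**Figure D4:**
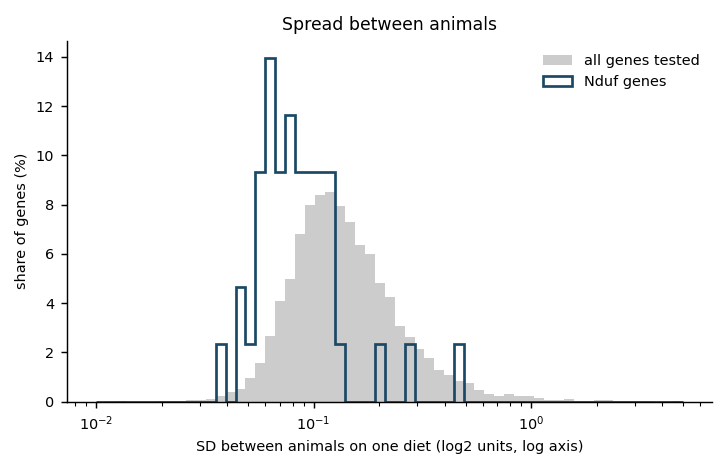
Share of genes (percent) by SD between animals on one diet (log2 units, log axis), for the 43 Nduf genes (outline) and all 12266 genes tested (grey). The members centre at 0.079 and all genes at 0.130, and the member at the far right is Ndufs1 (0.46).

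Ndufs1 was high or low in an animal with nothing between. Its probe set (1425143_a_at) read 11.40 to 11.62 in 6 animals and 12.29 to 12.45 in the other 10, a gap of 0.67 log2 units that took up 0.635 of the whole range. The low animals were controls 1, 4 and 8 and PIO animals 9, 10 and 13, so each diet had 3 low and 5 high values. Its difference between diets (-0.0092, SE 0.21) had the widest error of any member. Only 16 of 12266 genes (0.13%) showed such bands, defined after the values were seen as a gap of at least 0.5 of the range with 3 or more animals on each side, and no other member was among them. None of the 20 tested genes nearest to Ndufs1 on its chromosome in RefSeq order showed them. A single probe set of Ndufs1 passed the filter, so a second reading of the gene was not analysed here. Of the low animals, controls 1 and 4 and PIO animals 9 and 13 also had a choroid plexus marker mean below the overall mean, as had controls 5 and 7, which were high for Ndufs1. Control 8 and PIO animal 10 were low for Ndufs1 with that marker mean above the overall mean. The part of choroid plexus tissue in the bands was not tested.

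Members tended to be high or low in the same animals. After each diet mean was taken out, the median Pearson r over the 903 pairs of members was 0.251, with 75% of pairs above 0, against 0.024 and 52.6% over all pairs of tested genes. The points share the 16 arrays, and r is given as a description. The 21 members with a mean between 11.5 and 13.5 had a median of 0.386, against 0.026 for the other genes of that range. The 34 complex I subunits had a median r of 0.278 (561 pairs) and the 8 Nduf assembly factors 0.178 (28 pairs). Complexes II to V had 0.389 among themselves and 0.299 with the Nduf genes, so the pattern ran across the respiratory chain. Scaling mattered to its size: the members' median was 0.171 after quantile normalization and 0.337 with arrays set to a common median.

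The members most like the rest were Ndufaf3, Ndufa6 and Ndufa10, with median r of 0.519, 0.511 and 0.510 with the other members. Ndufc2, Ndufa1 and Ndufs1 stood apart at -0.150, -0.146 and -0.098. These values are those of the chosen probe sets and may not be those of the genes. The other sets of Ndufc2 had r of 0.45 (1416366_at) and 0.21 (1460506_s_at) with its chosen set. Ndufa1 and Ndufs1 had 1 probe set each. The highest pair was Ndufa10 with Ndufb3, a small membrane arm subunit, at 0.950, and the lowest was Ndufaf1 with Ndufa1 at -0.679. Ndufb3 read 12.42, 12.39 and 12.41 in PIO animals 10, 11 and 12 and 12.71 in PIO animal 13, and Ndufa10 read 12.78, 12.70 and 12.78 in the first and 12.95 in the last. Both genes were thus low in PIO animals 10, 11 and 12 and high in PIO animal 13, although the highest Ndufa10 value was that of control 4 (12.98).

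The animal with the lowest values over the set was PIO 11, where the median deviation of the members from their own means was -0.071 and 6 of 43 members lay above their mean. The animal with the highest was PIO 13, at 0.067 with 35 of 43 above. Controls lay between -0.024 and 0.060 (median 0.0089, SD 0.033) and PIO animals between -0.071 and 0.067 (median -0.0050, SD 0.045). The range with PIO thus held the whole control range. The deviations of complexes II to V were lowest and highest in the same animals, at -0.083 in PIO 11 and 0.084 in PIO 13. Neuronal marker means were 0.083 (PIO 11) and 0.043 (PIO 13) above their overall mean, that of PIO 11 being the highest of all animals. Markers of hippocampal neurons were also highest in PIO 11, at 0.245 above their overall mean, and lay at -0.067 in PIO 13. Choroid plexus markers were 2.68 above their overall mean in PIO 11 and at -3.84 in PIO 13. The part of neuronal content and of other tissues in this pattern was not tested.

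**Figure D5:**
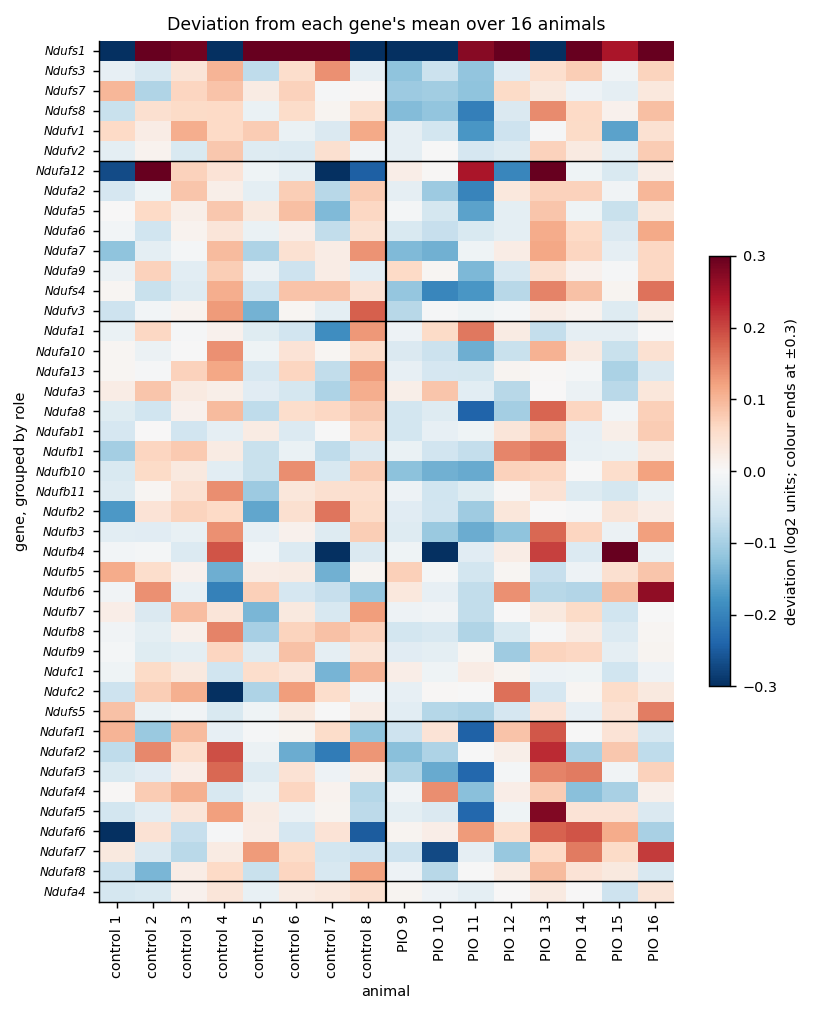
Deviation of each Nduf gene from its own mean over 16 animals (log2 units, colour ends at 0.3 in either direction), with animals in columns by diet and genes in rows by role. PIO 11 is mostly blue (6 of 43 members above their mean), PIO 13 mostly red (35 of 43), and Ndufs1 in the top row alternates between both ends.

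Members read by several probe sets were compared across them. Of 21 members with more than 1 probe set past the filter, 11 had all their differences on one side of 0 and 10 had them on both. Ndufs8 had 5 probe sets, with differences between -0.127 and -0.022. Ndufs7 had -0.064 and -0.086. Ndufv2 had 0.0063 in the chosen set and -0.045 and -0.043 in the others, and Ndufa5 -0.052 and 0.031. Over all 81 member probe sets, 52 had negative differences (64.2%, against 46.9% of all probe sets kept).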

How the data were processed

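The authors deposited a log2 signal for each probe set on each array, and the scale was judged from the numbers. The submitters' processing notes name MAS5, GCRMA and R 2.7.1 but not which made the values, and the sources used here name no genome build. Of 45101 probe sets, 64 were controls, 34945 had 1 symbol, 932 several and 9160 none here. Symbols of 34754 were matched by Entrez identifier to RefSeq, and 0 changed. Probe sets with a mean above the 40th percentile (3.58) were kept (22811), and each gene was read by its probe set of highest mean (12266 genes). Diets were compared with limma 3.58.1 (lmFit, eBayes) under R 4.3.3, in a model of diet alone, and p-values were adjusted over all genes by Benjamini-Hochberg. The fit was tested on simulated data.

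The members, gene lists and rules were chosen with earlier results of these data known. Values are given for the core subunits, the 5 higher and 5 lower members with the smallest p, the 3 most and 3 least variable, the highest and lowest in mean, Ndufa4 and Ndufa4l2, beside other genes of complexes II to V, assembly factors and regulators. Other genes of like signal and the markers of hippocampal neurons were added after the values were seen. Each array description holds a number and a code of unstated meaning. The code was shared by 5 control and 6 PIO arrays, by 2 and 1, and by 1 and 1. Alternatives were other filters, scalings, probe set rules, priors and weights, the array code or number as a block or alone, and each animal left out. Each array is a separately numbered subject, and their number limits the precision. No paired analysis was possible because the diets share no subject numbers.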

Additional observations from a re-analysis of the deposited data

Results flagged for a closer look

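Each diet group of 8 animals was examined for each of the 43 tested Nduf genes, 86 groups in all, for an animal far from the others by Dixon's ratio at its 95% critical value. There were 6 such values, and chance gives about 1 group in 20. Control 4 was high for Ndufa10 (12.98, nearest 12.90) and Ndufaf3 (10.86, nearest 10.73) and low for Ndufc2 (13.44, nearest 13.72). Control 7 was low for Ndufa5 (13.75, nearest 13.88) and for Ndufb4 (3.15, nearest 3.55), the latter near the filter. PIO 15 was low for Ndufc1 (12.90, nearest 12.94).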

How the results depend on the processing

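No gene passed the adjusted threshold under any of the 15 other settings or with any of the 16 animals left out. The count of members with an unadjusted p under 0.05, 2 as reported, was 1 with probe sets of shared sequence left out (33 members), with the most common array code alone, with array number range as a block and without PIO animals 14 and 15, and 0 in arrays 10 to 24 or 1 to 6 alone. It was 3 with no filter and with the plain two-sample comparison, both adding Ndufa13, and with every probe set on its own. Leaving out 1 animal gave 0 (without control 8) to 3 (without control 2, among others). With 1 animal left out, Ndufv1 no longer had an unadjusted p under 0.05 without control 3, 5 or 8 or PIO 11 or 15. Ndufaf6 no longer had one without control 1 or 8. The 1 member left was Ndufaf6 with probe sets of shared sequence left out, the most common array code alone or number range as a block. Without PIO animals 14 and 15 the 1 member left was Ndufv1. The count of lower members, 29 as reported, was 52 of 81 with every probe set on its own and 18 in arrays 10 to 24 alone, and 23 (without PIO 11) to 33 (without PIO 13) with 1 animal left out. Quantile normalization or a common array median gave 31 of 43 lower (72.1%, against 49.9% and 50.1% of all genes). With 1 animal left out, the median difference ran from -0.026 (without PIO 13) to -0.0040 (without PIO 11) and the median SD from 0.076 to 0.082. Over the other settings the median difference lay between -0.056 (arrays 1 to 6) and 0.0025 (arrays 10 to 24), and the median SD between 0.069 (arrays 1 to 6) and 0.091 (probe sets of shared sequence left out). With 1 animal left out, the members' median r ran from 0.192 (without PIO 13) to 0.278 (without control 2), with 0.305 in arrays 10 to 24 alone and 0.276 without Ndufs1. Of 506 values of the 17 named members under other settings, many had little room to move. Leaving out 1 animal cannot shift a difference by 1 SD between animals, and other filters or priors left the difference itself unchanged. Of the 506, 500 lay within 1 SD of the value reported, which says little on stability. The exceptions were Ndufab1 at 0.076 with probe sets of shared sequence left out, and, in arrays 1 to 6 alone, Ndufs1 at -0.49, Ndufs7 at -0.15, Ndufs8 at -0.15, Ndufb1 at -0.056 and Ndufb4 at -0.27. The cause was not tested. The settings with arrays 1 to 6 alone and without PIO animals 14 and 15, and those of the median r, were chosen after seeing the data.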

Other observations

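The 6 animals with low Ndufs1 stood together at one end of few other genes. Of 12265 other genes tested, 6 had these animals as their 6 highest or 6 lowest, with no gap of 0.5 of the range in any. Sh3gl2, BC003965, Bfar, Lancl1 and Rab26 were highest in them, and Chd1 was lowest. Lancl1 was the only one on the chromosome of Ndufs1, with 19 tested genes between them in RefSeq order. It read 12.19 to 12.45 in the 6 animals and 11.87 to 12.11 in the other 10. This search was made after the values of Ndufs1 were seen, and no test was run on it.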
